A study of Mus musculus with 6 samples.

Results

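Genes whose symbol ends in os are named for lying on the opposite strand of a host gene, and 194 such os genes with 178 hosts were followed in inguinal white fat of mutant and Wt mice. They were taken from the 55573 genes listed for each mouse as every symbol made of a host's symbol plus os, with or without a number, where the host is also listed. Of 328 symbols ending in os, 302 had a listed host, and the 194 pairs were selected on the os gene's value, which had to reach 0.1 in at least 1 mouse. Values are normalized CPM, which are read counts scaled to a common library size. The 108 other os genes stayed below this limit, and 62 of them had no read in any mouse. Among the last os genes inside the limit were Cep112os1, Dlx6os1 and Maats1os, each with a highest value of 0.105. Among the first outside were Dtnbos, Slc6a19os and Trpc5os, each at 0.0973.

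The samples were inguinal fat, a subcutaneous depot, from 6 male C57BL/6NTac mice of 3 months on regular chow without treatment, with 1 total RNA library per mouse. The mutant group (n = 3) carried K283Q and K288R substitutions of thyroid hormone receptor alpha (THRA) as a homozygous global knock-in, so that every cell type of the depot carries them, and the Wt group (n = 3) carried the unaltered receptor. Reads on genes ranged from 19607423 to 24228381 per mouse. A value of 0.126 to 0.157 stood for 3 reads, depending on the mouse, and this floor covers counting error only. The fat depot's markers (Adipoq, Lep, Plin1, Fabp4, Cidec and Pparg) were present in every mouse, with a summed value of 10296 to 17038. Skeletal muscle markers summed to 10447 to 26225, so muscle RNA was also present in every library, and B cell markers summed to 2.36 in mutant 1 and to 258 to 553 in the others. In whole tissue, fewer cells of a type and less RNA per cell cannot be told apart.

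Antisense transcripts are made from the DNA strand facing that of a neighbouring gene. Some are long noncoding RNAs that start from the promoter of their host, some run through the host's exons, and a few code for proteins of their own. When the exons of both genes cover the same bases, a read can be given to the right gene only if the library and the counting keep the strand of the RNA. The sources used here do not give the strand setting. The os value as a percentage of the host value was therefore followed in each mouse as a measure of strand carry-over, which is the assignment of host reads to the facing gene. From these values, carry-over and transcription of the os gene cannot be told apart.

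In the annotation all 194 os genes lay on the strand opposite to their host, but they were arranged in different ways. In 136 pairs the exons of os gene and host shared bases, from 6 to 3255 of them with a median of 249.5. In 21 pairs the gene spans overlapped without shared exonic bases, and in 37 pairs the spans lay apart. Of the latter, 24 pairs were head to head, with start sites at most 1000 bases apart. These arrangements refer to the named host only, and some os genes, such as Brip1os and Cep83os, share exonic bases with another facing gene. GENCODE listed 159 of the os genes as antisense, 12 as processed transcripts, 9 as protein coding, 9 as lincRNA, 3 as bidirectional promoter lncRNA, 1 as a unitary pseudogene and 1 as to be experimentally tested.

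The sequences below show what sharing of exons means for the pairs with the largest call and for the gene of a histone demethylase. Each is a stretch of 30 bases in GRCm38, written 5′ to 3′ as in the GENCODE M21 transcript, and the capitals mark bases that are exonic in both genes. The stretches lie at chr7:89510424-89510453 and chr11:69401575-69401604, in the coding part of the host in both cases.
Prss23os, plus strand: TGAGCAGGAAGTCCTTCCCAAAAATGCTAA
Prss23, minus strand: TTAGCATTTTTGGGAAGGACTTCCTGCTCA
Kdm6bos, plus strand: TGTGGCCCACGTGGCTGAGCATGTTGCCTG
Kdm6b, minus strand: CAGGCAACATGCTCAGCCACGTGGGCCACA
Within each pair the host line is the reverse complement of the os line. Without strand information a read from these bases fits either gene equally well.

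The os/host ratio was higher in mutant than in Wt fat for pairs that share exons. The limit on the os value bears on this comparison, since 39 of the 136 exon-sharing members reached it in mutant mice only and 3 in Wt mice only, against 7 and 6 of the 58 other members. The ratio was therefore first taken over every named pair, without the limit. Over the 140 exon-sharing pairs of this kind whose host had reads in every mouse, the Wt mice, taken in the order 1, 2 and 3 here and below, had a median os value of 0.476%, 0.589% and 0.743% of the host value. The mutant mice, in the same order, had medians of 2.15%, 2.57% and 2.603%. All mutant mice lay above all Wt mice, with means of 0.602 ± 0.134% (SD, n = 3) and 2.44 ± 0.251% (SD, n = 3). The exact two-sided permutation test gave p = 0.1, the smallest value that 3 mice against 3 allow. Over the 103 pairs without shared exonic bases the medians were 0.150%, 0.125% and 0.252% in Wt and 0.134%, 0.274% and 0.2996% in mutant mice, with overlap (exact permutation p = 0.3). Only 55 of these 103 reached the limit, against 129 of the 140 exon-sharing pairs. In the rest the os gene had fewer than 3 reads in every mouse. Counting error thus weighs more on the medians without shared exons, and their overlap cannot show that the ratio was unchanged.

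Within the members the values are a description, without a test. Over the 129 exon-sharing members whose host had reads in every mouse the median was 0.796 ± 0.209% in Wt and 2.83 ± 0.268% in mutant mice (SD, n = 3 each), and over the 55 members without shared exonic bases it was 3.195 ± 0.217% and 3.97 ± 0.759%. Where the limit was reached in mice of both genotypes, the median was 1.77 ± 0.442% in Wt and 4.13 ± 0.352% in mutant mice over 92 exon-sharing pairs, or 2.33 times as high. Over the 44 such pairs without shared exons it was 5.46 ± 0.306% and 7.15 ± 1.61%, or 1.31 times as high, and the groups overlapped.

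**Figure D1:**
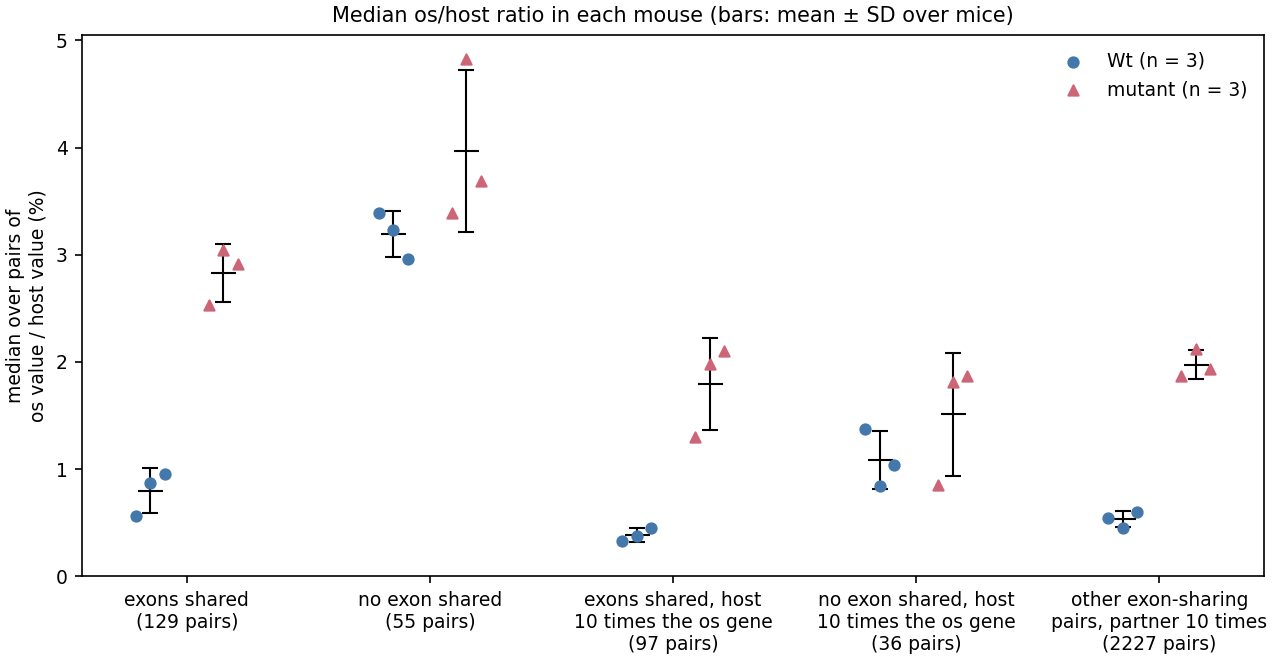
Median over pairs of the os value as a percentage of the host value, 1 point per mouse, with the mean ± SD of 3 mice as bars, for exon-sharing pairs, pairs without shared exons, the same after keeping hosts at least 10 times as abundant as the os gene, and other exon-sharing gene pairs. Mutant mice lie above Wt mice wherever exons are shared, where 39 of 136 members entered through mutant mice only, and the groups overlap or touch where no exon is shared.

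Members with a host at least 10 times as abundant as the os gene were also taken alone, a choice made after the data were examined. In these 97 exon-sharing pairs the median was 0.382 ± 0.0636% in Wt and 1.79 ± 0.433% in mutant mice (SD, n = 3 each). Of them, 34 had reached the limit in mutant mice only and 1 in Wt mice only, so the choice of members bears on this difference. In 2227 other exon-sharing pairs of genes on opposite strands, none of them a named pair and all chosen with the same limit on the less abundant gene, the less abundant gene stood at a median of 0.530 ± 0.0754% of its partner in Wt and 1.97 ± 0.133% in mutant mice, or 3.73 times as high. A difference between these and the named pairs was not tested. In sums rather than medians, the os values of the 136 exon-sharing members came to 4.22%, 4.16% and 4.08% of the summed host values in Wt fat and to 6.17%, 6.37% and 6.01% in mutant fat, or 1.49 times as high. Over all 166 named exon-sharing pairs, without the limit, the factor was also 1.49, and no mutant mouse overlapped a Wt mouse (exact permutation p = 0.1). The sums were also higher in mutant mice without shared exons, at 20.1%, 22.9% and 22.1% in Wt fat and 25.04%, 23.9% and 28.8% in mutant fat over the 58 members, or 1.19 times as high without overlap. Within these, the 37 pairs whose spans lie apart came to 35.1%, 39.3% and 36.6% in Wt fat and 50.2%, 44.5% and 53.1% in mutant fat, or 1.33 times as high without overlap. Oip5os1, the most abundant os gene with a mean of 210 over all mice, is among these 37 and was not called between genotypes. Such sums follow the most abundant genes, and sums without Oip5os1 were not taken, so they do not show a rise across pairs. Over all 136 named pairs without shared exons and without the limit, the sums were 12.7%, 14.6% and 13.8% in Wt fat and 15.1%, 14.2% and 17.2% in mutant fat, with overlap (exact permutation p = 0.2).

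Single os genes were compared with limma on log2(value + 0.5), with Benjamini-Hochberg adjustment over the 16868 genes of the whole table that passed a filter on low values. Of the 194 os genes, 96 passed it and 98 were too low to be tested. Past an FDR of 0.05, 23 os genes were higher and 1 was lower in the mutant. Among all genes tested, 5.5% were higher and 2.61% were lower, and scaling by library size alone moved the split of calls from 928 higher and 440 lower to 1019 and 265. All 24 called os genes were among the 67 tested that share exons with their host (34.3% higher). None of the 29 tested os genes without shared exons passed the FDR. Among the less abundant genes of other exon-sharing pairs, 28.1% were called higher, so such calls were not particular to genes named os. The 34.3% counts 13 os genes that passed the filter through mutant mice only. Neither share was limited to genes that reached the filter value in both genotypes, so their sizes were not compared. No host of the 24 passed the FDR, Tomm6 being too low to be tested.

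The filter itself bears on these counts. It asks for a value of about 0.458 in 3 mice, and 15 of the tested os genes reached this in mutant mice only, so they had to differ, and 13 of them were called higher. Of the 80 os genes that reached it in mice of both genotypes, 10 were called higher and 1 lower. Among all genes that did so, 3.59% were called higher. The count of called os genes also fell whenever a mouse was left out. It was 24 in all, 10 without Wt mouse 2, 11 without mutant mouse 2 and 14 without Wt mouse 3. It was 15 without mutant mouse 3, 16 without Wt mouse 1 and 21 without mutant mouse 1. Each such fit has fewer mice, and calls among all genes fell too, from 1368 to 554 without Wt mouse 2 and 587 without mutant mouse 2. Of the 24, 10 were called with every mouse left out in turn and under every other setting tried: Prss23os, Rbfaos, Efhd1os, Mccc1os, Scpep1os, Kdm6bos, Acss2os, Atcayos, Anxa11os and Slfn5os. Of these 10, Efhd1os, Scpep1os, Kdm6bos, Acss2os and Anxa11os are among the 15 that were tested through mutant mice only, so that their calls are no support for a difference.

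Prss23os had the smallest adjusted p. Its host Prss23 encodes a secreted serine protease, and 864 of the 1592 exonic bases of Prss23os are shared with it, around the bases shown above. Prss23os was at 0.838, 0.438 and 0.799 in Wt fat and at 14.6, 11.98 and 10.2 in mutant fat. These are 9 to 20 reads in Wt and 218 to 278 reads in mutant mice, and the groups lay far apart. The means differed 17.7 times, and the log2 difference was 3.42 with an SE of 0.21 (limma, adjusted p = 0.00122). Prss23 itself was at 71.8, 70.6 and 59.4 in Wt and 115, 89.9 and 80.0 in mutant mice, a log2 difference of 0.48 that did not pass (SE 0.15, limma, adjusted p = 0.114), although every mutant mouse was above every Wt mouse. The ratio stood at 1.17%, 0.620% and 1.34% in Wt fat and at 12.7%, 13.3% and 12.7% in mutant fat.

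Rbfaos, a lincRNA that faces the ribosome maturation factor gene Rbfa, was at 0.628, 0.340 and 0.968 in Wt and 6.18, 5.70 and 5.05 in mutant mice. It reached 21.2% to 24.2% of its host in mutant mice against 1.27% to 3.27% in Wt, the highest ratios in mutant fat among the called pairs with a more abundant host. The log2 difference of Rbfaos was 2.46 with an SE of 0.23 (limma, adjusted p = 0.00272). Rbfa was at 26.8 to 29.6 in Wt and 23.8 to 25.6 in mutant mice, so every mutant mouse lay below every Wt mouse, but the difference did not pass the FDR (log2 difference -0.16, SE 0.08, limma, adjusted p = 0.316).

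Several hosts of the called os genes work in metabolism, and none of these hosts passed the FDR. Mccc1 encodes a subunit of the carboxylase that breaks down leucine. Mccc1os was at 1.47, 1.36 and 1.39 in Wt and 4.09, 4.62 and 3.98 in mutant mice, a log2 difference of 1.31 (SE 0.14, limma, adjusted p = 0.00375). Mccc1 was at 165 to 210 in Wt and 164 to 238 in mutant mice. Acss2 makes acetyl-CoA from acetate, and Acss2os was at 0.293, 0 and 0.252 in Wt and 2.41, 2.11 and 1.59 in mutant mice. Here Wt mouse 2 had no read, which allows up to 3 reads, and the mutant mice had 34 to 47 reads (log2 difference 1.91, SE 0.24, limma, adjusted p = 0.00649). Sardh is a mitochondrial enzyme of sarcosine breakdown, and Sardhos had at most 1 read in each Wt mouse and 9 to 15 reads in mutant mice. Acss2os and Sardhos reached the filter value in mutant mice only. The call of Sardhos was lost without Wt mouse 2, Wt mouse 3 or mutant mouse 2 (limma, adjusted p of at most 0.0637).

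Kdm6bos faces Kdm6b, which encodes a histone demethylase that removes a repressive mark. Kdm6bos was at 0.293, 0.243 and 0.379 in Wt and 3.04, 1.93 and 1.73 in mutant mice, without overlap, and it reached the filter value in mutant mice only. Kdm6b went the other way in value, from 87.8, 92.7 and 82.0 in Wt to 78.2, 67.7 and 69.3 in mutant mice, but did not pass (log2 difference -0.29, SE 0.09, limma, adjusted p = 0.114). The ratio moved from 0.262% to 0.462% in Wt to 2.497% to 3.89% in mutant mice, a log2 difference of 2.02 in (os + 0.5)/(host + 0.5) with an SE of 0.19 (limma over all pairs, adjusted p = 0.000136).

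Efhd1os, Scpep1os, Anxa11os and Slfn5os showed the same arrangement of values. Efhd1os, facing a gene for a mitochondrial calcium-binding protein, was at 0.168, 0.0486 and 0.294 in Wt and 1.99, 2.15 and 1.68 in mutant mice. Scpep1os, facing a serine carboxypeptidase gene, was at 0.0838, 0.195 and 0.210 in Wt and 1.41, 1.21 and 1.08 in mutant mice. Each of these Wt values is at most 7 reads, while the mutant values are 23 to 48 reads. Anxa11os, facing an annexin gene, had 1, 1 and 3 reads in Wt and 18, 18 and 29 in mutant mice, which are values of 0.808 to 1.36. Slfn5os, facing the Schlafen gene Slfn5, was at 0.922, 0.438 and 0.757 in Wt and 2.83, 4.85 and 4.59 in mutant mice. Slfn5os also shares 151 exonic bases with Unc45b, which was at 38.6 to 68.7 in Wt and 53.1 to 73.3 in mutant mice. The log2 differences of the 4 os genes were 1.88, 1.39, 1.41 and 1.92 in this order, with limma adjusted p from 0.00345 to 0.00798. All but Slfn5os reached the filter value in mutant mice only.

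Atcayos and Tomm6os differed from the rest in being more abundant than their hosts in every mouse. Atcayos faces Atcay, a gene best known from neurons, and was at 6.49, 7.39 and 3.87 in Wt and 31.5, 20.1 and 28.4 in mutant mice. Every mutant mouse exceeded every Wt mouse (log2 difference 2.101, SE 0.27, limma, adjusted p = 0.00698). Atcay was at 0.838, 2.63 and 3.32 in Wt and 1.36, 3.32 and 3.46 in mutant mice, with overlap. Atcayos also shares 270 exonic bases with Nmrk2, a gene of nicotinamide riboside use in muscle, which was at 12.2, 7.29 and 4.75 in Wt and 5.40, 2.29 and 5.94 in mutant mice. Atcayos thus exceeded both facing genes in every mutant mouse. The skeletal muscle markers summed to 22431, 19912 and 10447 in Wt and 26225, 16813 and 26181 in mutant mice, and their part in the value of Atcayos was not tested.

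Tomm6os faces Tomm6, which encodes a small subunit of the mitochondrial import pore, and was at 3.10, 2.53 and 2.40 in Wt and 6.13, 5.70 and 5.90 in mutant mice. The groups were tight and separate (log2 difference 1.02, SE 0.14, limma, adjusted p = 0.0097). The call was lost without Wt mouse 2 (limma, adjusted p = 0.0546). Tomm6 stayed between 0.0898 and 0.576 in all mice and was not tested. The other facing genes, Prickle4 and Gm21981, had means over all mice of 0.588 and 0.375. No facing gene in the annotation was thus as abundant as Tomm6os. In all, 11 os genes exceeded their host in every mouse, 6 of them with shared exons, and Atcayos and Tomm6os were the 2 called. Hoxd3os1, facing the homeobox gene Hoxd3, was another, at 2.89, 2.97 and 3.28 in Wt and 3.77, 2.87 and 2.39 in mutant mice, with overlap, while Hoxd3 stayed at 0.262 to 0.449.

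**Figure D2:**
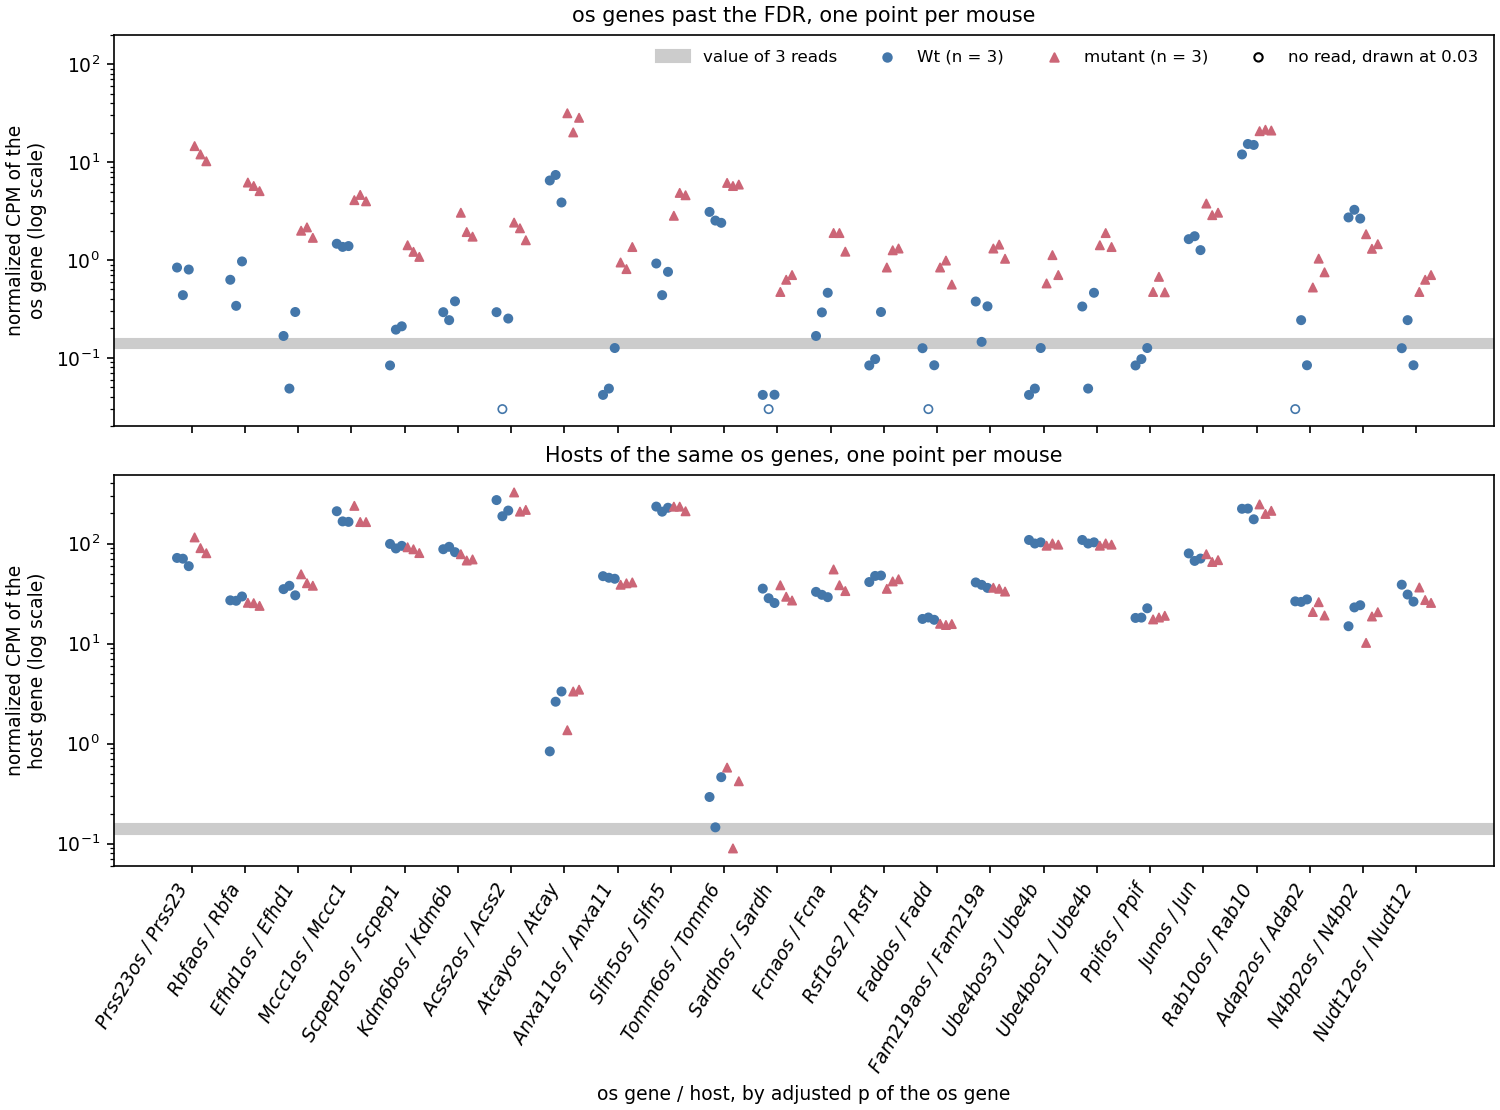
Normalized CPM of the 24 called os genes (top) and of their hosts (bottom) on log axes, 1 point per mouse, ordered by the adjusted p of the os gene. Mutant mice lie above Wt mice for every os gene shown except N4bp2os, while no host passed the FDR.

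The 12 called os genes after these were Fcnaos, Rsf1os2, Faddos, Fam219aos, Ube4bos3, Ube4bos1, Ppifos, Junos, Rab10os, Adap2os, N4bp2os and Nudt12os, with limma adjusted p from 0.0133 to 0.0484. The call of each was lost with at least 1 mouse left out, where the highest limma adjusted p lay between 0.0662 and 0.177. Rsf1os2, Faddos, Fam219aos, Ube4bos3, Ppifos, Adap2os and Nudt12os reached the filter value in mutant mice only. Besides its host, Rsf1os2 shares 121 exonic bases with Clns1a, which had a mean of 31.7 over all mice. Ube4bos1 and Ube4bos3 share the host Ube4b, a ubiquitin ligase gene, at separate places, and had mutant means of 1.55 and 0.8001 against a host at 95.1 to 109 in all mice. Junos, facing the transcription factor gene Jun, was at 1.63, 1.75 and 1.26 in Wt and 3.77, 2.87 and 3.04 in mutant mice. N4bp2os was the exception in direction, at 2.72, 3.26 and 2.65 in Wt and 1.83, 1.30 and 1.45 in mutant mice. Its log2 difference was -0.74 with an SE of 0.17 (limma, adjusted p = 0.0477), and the quasi-likelihood test of edgeR on the reads behind the values did not call it.

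The ratio itself was tested for 90 named pairs whose genes both passed the filter, in 1 fit with 2301 other exon-sharing pairs. It was higher in the mutant for 29 of the 63 exon-sharing named pairs (46.0%) and lower for 1. Among the other pairs, with the less abundant gene over the more abundant one, 38.3% were higher and 2.22% were lower. The filter bears on these counts too, since the 15 os genes that passed it in mutant mice only had to differ. The median log2 difference was 0.57 in the 63 exon-sharing pairs, 0.08 in the 27 pairs without shared exons and 0.34 in the other 2301 pairs. Of the 27 pairs without shared exons, the ratio was higher in 3, which were Cpeb1os1, Dnm3os and Rab26os (named after their values were seen). Of the 24 called os genes, 21 were also called higher in the ratio, which uses the same os values and is no separate evidence.

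The change of the ratio varied with the relative abundance of host and os gene, but not in 1 direction over the whole range. Where the host was less abundant than the os gene, 2 of 3 exon-sharing ratios were higher, 1 was lower and the median log2 difference was 1.10. Where the host was 1 to 2 times as abundant, 2 of 4 were higher and the median was 0.20. Where the host was 2 to 10 times as abundant, 3 of 14 exon-sharing ratios were higher and the median log2 difference was -0.01. With a host 10 to 100 times as abundant, 17 of 35 were higher and the median was 0.72. Above 100 times, 5 of 7 were higher and the median was 1.25. The bins of 3, 4 and 7 pairs are too small to carry a trend. The other pairs had medians of 0.02, 0.10, 0.84 and 1.18 from a ratio of 1 upwards, with 8.5%, 18.5%, 56.5% and 74.0% higher. Across the 63 pairs the rank correlation of relative abundance with the change was 0.37, and that of the share of the os exons covered by the host was 0.28. The pairs share the 6 libraries and the same value enters both axes, so these are descriptions without a test.

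**Figure D3:**
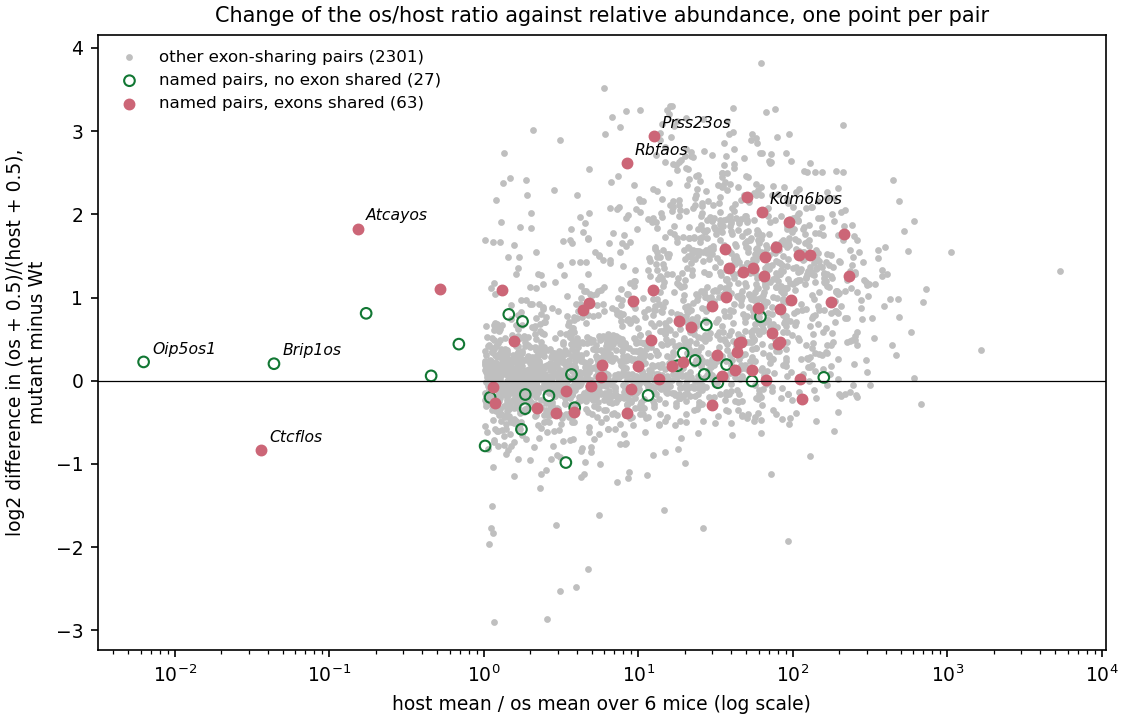
Mutant minus Wt log2 difference of the os/host ratio (vertical) against the mean host value over the mean os value (horizontal, log axis), 1 point per tested pair, for exon-sharing named pairs, named pairs without shared exons and other exon-sharing pairs. Named exon-sharing pairs lie among the other pairs, mostly above 0 where the host is over 10 times as abundant, and Oip5os1 and Brip1os lie near 0.

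The 98 os genes that were not tested had means of 0.0175 to 0.420 over all mice. Every mutant mouse was above every Wt mouse in 29 of them, of which 27 share exons with their host, and below in 2. Over all 194 members these counts were 67 and 9 (34.5% and 4.64%), against 14.5% and 12.2% of all listed genes that reached 0.1 in at least 1 mouse. The limit chosen on the os value shapes this. In 46 members it was reached in mutant mice only and in 9 in Wt mice only, and a member that entered through 1 genotype tends to be higher there. In the 139 members that reached it in both genotypes, every mutant mouse was above every Wt mouse in 44 (31.7%) and below in 9. The share over all genes that reached 0.1 in both genotypes was not computed, so this count has no background to be read against.

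Of the 8 most abundant os genes outside the 12 with the smallest adjusted p, 7 were not called and Rab10os was. Oip5os1, also known as Cyrano, is a conserved long noncoding RNA known for a site that pairs with the microRNA miR-7, and it was the most abundant member by far. It was at 190, 215 and 166 in Wt and 255, 189 and 244 in mutant mice, with overlap (log2 difference 0.26, SE 0.15, limma, adjusted p = 0.344). Its host Oip5, a gene of centromere assembly in dividing cells, was at 0.922 to 1.70 in all mice. Per kilobase of exon, the mean level of Oip5os1 was 25.3 and that of Oip5 was 0.741. The spans of this pair lie apart, and the ratio was not called (log2 difference 0.23, SE 0.17, limma, adjusted p = 0.337).

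Brip1os starts 177 bases from the DNA helicase gene Brip1, head to head, and was at 48.9, 39.7 and 44.3 in Wt and 55.4, 50.7 and 45.4 in mutant mice. Brip1 was at 1.63 to 2.90 in all mice, and neither gene nor their ratio passed the FDR. Brip1os shares no exonic bases with Brip1, but it shares 800 with Med13 and 512 with Ints2 on the facing strand. Their means over all mice were 83.3 and 16.9, and neither passed the FDR. Cep83os starts 78 bases from Cep83, a gene needed for cilium formation. It was at 11.1, 11.4 and 10.5 in Wt and 9.17, 10.99 and 11.1 in mutant mice, with overlap. Its ratio to Cep83 was 60% to 61.8% in Wt and 45.9% to 49.3% in mutant mice, which did not pass (log2 difference -0.34, SE 0.12, limma, adjusted p = 0.063). The bases between the start sites of each pair, from RefSeq promoter windows in GRCm38, are shown because they lie upstream of both starts. They are written on the host's strand, with capitals for CCAAT and GGGCGG boxes in either orientation.
Cep83os to Cep83, chr10:94688577-94688653, plus strand: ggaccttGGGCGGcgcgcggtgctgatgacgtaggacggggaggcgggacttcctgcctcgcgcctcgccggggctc
Brip1os to Brip1, chr11:86201194-86201369, minus strand: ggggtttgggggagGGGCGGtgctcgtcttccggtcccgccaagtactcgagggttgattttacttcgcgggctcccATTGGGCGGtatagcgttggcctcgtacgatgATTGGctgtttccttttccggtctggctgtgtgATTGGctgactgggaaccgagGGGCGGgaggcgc
The Brip1 stretch holds 3 CCAAT and 3 GGGCGG matches, one of each overlapping, and the Cep83 stretch holds 1 GGGCGG match. In all RefSeq promoter windows of 300 bases, 35.7% hold GGGCGG and 37.4% hold CCAAT on either strand. In the 22 windows of the head-to-head hosts these shares were 68.2% and 27.3%. Over the 24 head-to-head pairs, none of 14 tested os genes was called, and 1 of 13 tested ratios was higher.

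In the pair of Ctcflos and Ctcfl the host was called and the os gene was not. The host Ctcfl is a paralogue of the insulator protein gene Ctcf and is known from the male germ line, and here the os gene was the abundant one. Ctcflos was at 71.8, 60.9 and 58.8 in Wt and 67.7, 66.2 and 52.4 in mutant mice, with overlap (log2 difference -0.04, SE 0.13, limma, adjusted p = 0.855). Ctcfl was at 1.76, 1.51 and 1.35 in Wt and 3.30, 3.37 and 2.43 in mutant mice, without overlap (log2 difference 0.79, SE 0.18, limma, adjusted p = 0.0461). The host stood at 2.45%, 2.47% and 2.29% of the os gene in Wt and at 4.88%, 5.08% and 4.65% in mutant mice. The ratio of os gene over host was lower in the mutant by 0.83 on the log2 scale (SE 0.10, limma, adjusted p = 0.000291). Here the less abundant gene of the pair was the one called higher, as it was in 21 of the 24 pairs with a called os gene. Among the 63 exon-sharing named pairs with a tested ratio, the host was less abundant than the os gene in only 3. The count of 21 is therefore not particular to called os genes.

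**Figure D4:**
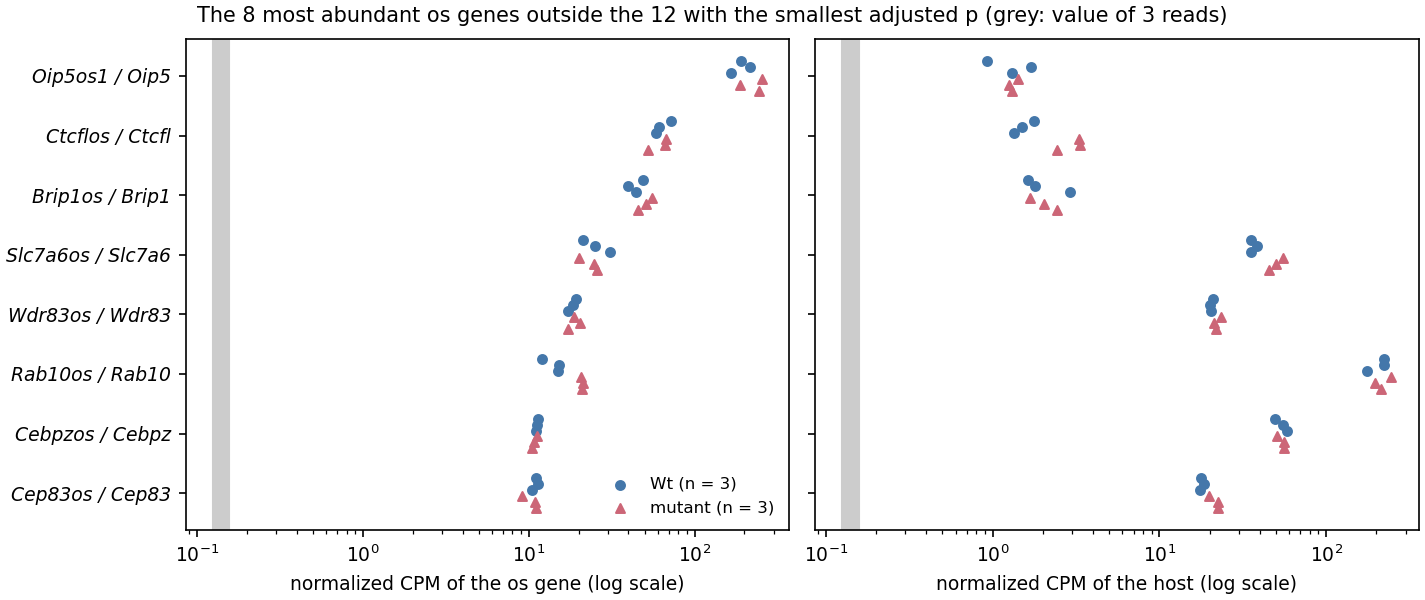
Normalized CPM of the 8 most abundant os genes outside the 12 with the smallest adjusted p (left) and of their hosts (right), on log axes, 1 point per mouse, with the value of 3 reads in grey. Wt and mutant mice overlap for 7 of the os genes and lie apart for Rab10os.

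Among the other abundant os genes, Rab10os was called. It shares 143 bases with Rab10, a small GTPase of glucose transporter traffic in fat cells, and was at 11.98, 15.3 and 14.98 in Wt and 20.7, 21.4 and 21.01 in mutant mice. The log2 difference was 0.57 with an SE of 0.12 (limma, adjusted p = 0.0379), and the call was lost with any 1 mouse left out and with scaling by library size alone. Slc7a6os, Wdr83os and Cebpzos code for proteins and were not called. They were at 20.02 to 31.1, 17.2 to 20.4 and 10.5 to 11.4 over all 6 mice. Of the 9 os genes that code for proteins, 6 were tested and none was called, as were none of their ratios, and the median log2 difference of these ratios was -0.07. Wdr83os and Cebpzos share 539 and 171 exonic bases with hosts at 20.2 to 23.3 and 49.5 to 58.0 over all mice.

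Dnm3os lies within the dynamin gene Dnm3 without shared exonic bases and was chosen for description after its values were seen. It is the precursor of 4 mature microRNAs listed by RefSeq on its strand in GRCm38, shown with the seed (bases 2 to 8) in capitals, and all 4 have different seeds.
mmu-miR-199a-5p: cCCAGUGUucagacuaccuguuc
mmu-miR-199a-3p: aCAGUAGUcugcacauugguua
mmu-miR-214-5p: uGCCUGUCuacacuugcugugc
mmu-miR-214-3p: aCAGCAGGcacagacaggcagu
Dnm3os was at 4.94, 5.93 and 3.49 in Wt and 10.1, 8.57 and 7.91 in mutant mice, without overlap. Its log2 difference of 0.84 (SE 0.21) did not pass (limma, adjusted p = 0.0597). Dnm3 was at 9.34 to 10.4 in all mice, and the ratio rose from 48.6%, 61.3% and 37.4% in Wt to 99.0%, 82.3% and 82.4% in mutant mice (log2 difference 0.80, SE 0.19, limma, adjusted p = 0.0107). The mature microRNAs were not analysed here.

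Of 160 tested hosts, 8 were higher and 4 were lower in the mutant (5.0% and 2.5%), which is near the 5.5% and 2.61% of all genes. The count of 12 fell to 3 without Wt mouse 3 or mutant mouse 2, to 4 without Wt mouse 2, to 5 without Wt mouse 1 or mutant mouse 1 and to 6 without mutant mouse 3. Of the 12 calls, 4 higher and 3 lower were among the 113 tested hosts that share exons. The 5 with a tested os gene were H3f3a, Man2c1, Slc7a6, Chrna1 and Ctcfl, and none of their os genes was called. H3f3a, which encodes a replication-independent histone, was at 38.9, 42.5 and 44.5 in Wt and 19.5, 22.7 and 26.2 in mutant mice (log2 difference -0.87, SE 0.12, limma, adjusted p = 0.0102). H3f3aos was at 2.05, 2.72 and 2.27 in Wt and 2.096, 3.59 and 2.85 in mutant mice. The ratio was 5.11% to 6.40% in Wt and 10.7% to 15.8% in mutant mice, so it rose as the host fell. Man2c1, an alpha-mannosidase gene, was at 80.1 to 87.6 in Wt and 61.7 to 66.6 in mutant mice (log2 difference -0.37, SE 0.07, limma, adjusted p = 0.0351), and Man2c1os was at 1.17 to 2.27 in all mice.

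Slc7a6, an amino acid transporter gene, was at 35.2, 38.5 and 35.5 in Wt and 55.1, 50.0 and 45.7 in mutant mice (log2 difference 0.46, SE 0.09, limma, adjusted p = 0.0367). Chrna1, a subunit of the acetylcholine receptor of muscle, was at 0.754, 1.36 and 1.09 in Wt and 3.04, 2.92 and 2.01 in mutant mice (log2 difference 1.01, SE 0.22, limma, adjusted p = 0.0437), and Chrna1os at 1.17 to 2.46 in all mice. The other called hosts had os genes too low to be tested. Wt1, a transcription factor of mesothelium and a marker in the mesothelial list, had at most 1 read in each Wt mouse and was at 2.88, 1.39 and 2.81 in mutant mice. Wt1 thus reached the filter value in mutant mice only, and its call is no support for a difference. Wt1os had no read in Wt mice and at most 0.105 in mutant mice. The 8 mesothelial markers summed to 31.6, 4.72 and 7.95 in Wt and 75.9, 37.8 and 50.7 in mutant mice, with 7 of 8 called higher. Of these markers, 5 had no read in some mouse, and which of them passed the filter through mutant mice only was not examined. Their part in the value of Wt1 was not tested.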

How the data were processed

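RNA-seq libraries of inguinal fat from 3 mutant and 3 Wt mice were compared, grouped by the genotype and mouse number in the labels. The deposited values are a signal per gene and mouse, which the authors normalized as CPM with a factor per mouse. The submitters' processing notes name Bowtie2 2.1.0, RSEM 1.2.15, edgeR and the build mm10. Whether counting used strand is not given in the sources used here. In each mouse 100% of the values were whole multiples (within 0.02) of the value of 1 read, so whole reads were recovered. Tests had been planned for either counts or normalized values, and the latter applied. Members and lists were chosen with earlier results of these data known.

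Genes were matched by identifier to GENCODE M21 (GRCm38, the primary sequence of mm10), which held 55480 of 55573. Shared exonic bases were counted over the union of exons of each gene. The recovered reads were passed through filterByExpr (edgeR 4.0.16), which kept 16868 genes. limma-trend (limma 3.58.1, R 4.3.3) was run on log2(value + 0.5) for these, and on log2((os + 0.5)/(host + 0.5)) for 2391 pairs, with an FDR of 0.05. Such differences understate the change of low genes. The paper's text names no test for the RNA-seq. The quasi-likelihood test of edgeR on the recovered reads called 1168 genes. Single values were compared by exact two-sided permutation tests. Libraries of a genotype differed beyond counting error (chi-square of at least 19.3 for each degree of freedom). Scripts were tested on simulated data. Alternatives were other scalings, tests (DESeq2 1.42.0, edgeR, limma-voom), filters and pseudocounts, a replicate block, an FDR of 0.1, and fits that each lacked 1 mouse.

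The pairs described mouse by mouse are up to 12 with a called os gene by adjusted p, up to 8 more with the highest os mean, those with a called host and a tested os gene, up to 6 with the os gene above the host in every mouse, and those next to the limit. Tables and figures were made with pandas 2.3.3 and Matplotlib 3.10.9 under Python 3.11.15.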

Additional observations from a re-analysis of the deposited data

How the results depend on the processing

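Called os genes numbered 24 as reported and 10 to 21 with 1 mouse left out. Called hosts numbered 12, and 3 to 6 with 1 mouse left out, 20 by the Wald test of DESeq2, 6 without a filter on low values and 45 with a replicate block. Calls among all genes numbered 1368, and 554 to 1005 with 1 mouse left out, 2118 by DESeq2, 2263 at an FDR of 0.1 and 4063 with the replicate block. Called ratios numbered 33, and 29 to 33 with 1 mouse left out and 50 without a filter. With the replicate block 29 os genes (26 higher) and 40 ratios (36 higher) were called. The block rests on mouse numbers only, since same-numbered mice deviated together at correlations of 0.69, 0.06 and 0.56 and mouse 2 did not match best with its own number. The median log2 difference of the ratio was 0.57, and 0.53 to 0.61 with 1 mouse left out, 0.63 with a pseudocount of 0.1 and 0.075 in pairs without shared exons. Summed os over summed host was 1.49 times as high in the mutant, 1.47 to 1.51 times with 1 mouse left out, 1.49 times without the limit on the os value, 2.04 times for hosts at least 10 times as abundant and 2.18 times for these without Zeb2, the last 3 added after the data were examined. Apart from these the counts stayed within 1.5 times, and the cause of the differences was not tested. Depth limits the 98 os genes that were too low to test.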

Other observations

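Antisense genes named by other rules gave no calls, but few were tested. Kcnq1ot1 counts both among the symbols and among the imprinted transcripts below, and no contrast with the os genes was tested. Of 10 symbols formed from a host's symbol plus as or ot, 8 had reads, 6 were tested and none was called by limma on these values (median log2 difference -0.06), although some of them, such as Hras and Leprot, are not antisense genes at all. Of the imprinted antisense transcripts, Airn was at 6.58, 6.27 and 6.56 in Wt and 6.45, 5.97 and 7.39 in mutant mice, and Peg13 was at 105 to 113 in Wt and 90.7 to 95.0 in mutant mice (limma, adjusted p = 0.0915). Of the 4 such transcripts with a row, 3 were tested and none was called, and the hosts Igf2r, Kcnq1, Gnas and Trappc9 were not called either.

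The mitochondrial genome has its own facing strands. The only protein gene on the light strand, mt-Nd6, was at 158, 104 and 80.0 in Wt and 631, 422 and 451 in mutant mice, without overlap (log2 difference 2.17, SE 0.27, limma, adjusted p = 0.00654). mt-Nd5 on the heavy strand was at 5022 to 7680 in Wt and 6019 to 8787 in mutant mice. The bases that these genes share are not given here, so their percentage is not an os/host ratio of an exon-sharing pair. mt-Nd6 stood at 2.101%, 1.35% and 1.59% of mt-Nd5 in Wt and at 7.18%, 7.01% and 6.89% in mutant mice (exact permutation p = 0.1, the smallest possible). Of the 8 light-strand transfer RNA genes, 6 were not tested. Of the others, mt-Tp was called higher and mt-Te was not called (limma, adjusted p = 0.00556 and 0.0592). mt-Tp was at 0.293, 0.195 and 0.210 in Wt and 1.83, 1.57 and 1.22 in mutant mice. mt-Tp thus reached the filter value in mutant mice only, and its call is no support for a difference.

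Thra and Nr1d1, a well-known convergent pair that is not named os, were at 117 to 147 and 300 to 416 in Wt and at 137 to 170 and 180 to 255 in mutant mice. Neither passed the FDR (limma, adjusted p = 0.404 and 0.0579). Thra levels do not check the labels, since the mutation changes codons and not the amount of RNA. Epithelial markers summed to 75.8, 5.49 and 10.8 in Wt and to 8.07, 23.1 and 3.79 in mutant mice, with none of 6 called.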
